A study of Mus musculus with 96 samples.

Results

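LINE-1 transcripts were followed through the first days of mouse development in the rows of a deposited count table whose names start with L1. These are subfamilies of the LINE-1 retrotransposon, each row summing the reads of all its copies. The table held 56274 rows, of which 873 were repeats. The 6 LINE-1 rows named L1Md (L1Md_T, L1Md_A, L1Md_F, L1Md_F2, L1Md_F3 and L1Md_Gf) were set against the 99 older ones, and these are the rows called LINE-1 rows below. Rows named Lx, a further rodent lineage of LINE-1, do not start with L1 and are given beside them only for comparison. The older rows comprised 12 named L1_ or L1VL, 9 L1MA, 7 L1MB, 11 L1MC, 6 L1MD, 27 L1ME, 25 other L1M and 2 L1P rows. Counts were found for every row but L1M2b. At 0 counts over all 96 libraries it could have reached 0.0121 per 1000000 gene counts (the level of 3 counts, counting error only, before the scaling described below).

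The series profiled 96 single oocytes and embryos of strain C57BL/6J, bred by pairing superovulated females with males of that strain. Each group was untreated, and the sources used here do not give the animals' age, the number of females or which embryos shared a mother. The 16 groups comprised 8 oocytes, 7 morulae of about 84 h, and embryos collected at set hours after fertilization. There were 5 embryos each at 0, 2, 8, 10, 12, 14 and 20 h, 8 each at 16 and 36 h, and 2, 3, 9, 10 and 6 embryos in the groups of 4, 6, 18, 22 and 24 h. Oocytes and morulae went through library preparation in batches of their own, apart from the cohort of 0 h to 36 h, so stage and batch cannot be told apart in the comparisons of 0 h with oocytes and of morulae with 36 h. The p-values measure the spread between these single oocytes and embryos.

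LINE-1 elements copy themselves through an RNA that encodes an RNA-binding protein and an endonuclease with reverse transcriptase activity. The L1Md subfamilies are the young elements of the mouse; the T, Gf and A types include copies that can still move and differ in the promoter repeats, called monomers, at their 5′ end. L1ME, L1MD, L1MC, L1MB and L1MA are progressively less ancient mammalian fossils that no longer encode working proteins, and L1_Mus and L1_Mur rows are rodent elements older than L1Md. Transcription of LINE-1 and of the endogenous retrovirus MERVL is known to rise around the 2-cell stage, when the embryonic genome is activated.

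Levels are given as counts per 1000000 gene counts of the library (CPM), scaled between libraries by the trimmed mean of M values (TMM). The values are relative to the gene RNA of the same library, so a change in LINE-1 RNA and an opposite change in total gene RNA per embryo cannot be told apart. Rows were not divided by length, and levels are therefore compared within a row or a sum of rows. Gene counts per library ran from 10378 (morula replicate 4) to 6795311 (median 2099222), and LINE-1 counts from 45 (again morula replicate 4; the next lowest was 1194) to 36247, with a median of 6492. Stage markers fitted most labels: MERVL-int had a median of 13.3 CPM in oocytes and 9160.3 at 36 h, and the summed 8 oocyte markers went from medians of 25376 at 0 h to 141 in morulae. Morula replicate 4 held 1959 CPM of these oocyte markers, against 74.6 to 224 in the other morulae, and is kept in the tests of morulae. The 8 morula markers were not a good guide, at 34.4 to 359.5 CPM in morulae and 234 to 308 in oocytes. The library of 10 h replicate 5 stood apart, with 27.1 CPM of oocyte markers and 9434 CPM of cumulus and granulosa markers. Its group is in none of the comparisons of stages tested below. The library does enter the levels and medians given for 10 h and the fit of all 96 libraries together.

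Over all libraries together, a single row carried most of the young LINE-1 signal. L1Md_T took 76.1% of all L1Md counts, and the 6 L1Md rows together took 20.7% of all LINE-1 counts. The L1_ and L1VL rows took 20.8%, L1ME 16.4% and the other L1M rows 13.9%. Among L1ME rows, L1MEd held 39.9% of the counts. The rows of highest mean level in the remaining classes were L1_Mur2, L1MA4, L1MB8, L1MC1, L1MD, L1M4 and L1PB4. That did not hold at every stage: at 36 h the young rows without L1Md_T had a median of 697 CPM, and all young rows together one of 1311 CPM. Because L1Md_T outweighs the other young rows in the total, it is described on its own before the young rows are summed.

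L1Md_T was low in oocytes, high at 0 h, low again from 10 h to 14 h and highest in morulae relative to gene counts. In the 8 oocytes it lay at 110.7 to 258 CPM (median 179.8). The 5 embryos at 0 h held 1047, 1243, 1347, 553 and 378 CPM. All 5 lay above every oocyte, and the lowest and the highest were far apart. At 2 h the 5 embryos held 304, 611, 417, 251 and 265 CPM, at 4 h the 2 embryos 272 and 469, and at 6 h the 3 embryos 491, 353 and 454 CPM. The level at 2 h thus overlapped the lower end of 0 h. Embryos at 8 h held 633, 149, 407, 425 and 355 CPM and those at 10 h 277, 241, 317, 215 and 252 CPM. At 12 h the values were 287, 277, 294, 291 and 210.0 CPM, and at 14 h 219, 344, 100.03, 266 and 277 CPM. From 10 h to 14 h every library was therefore below the lowest 0 h embryo.

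Embryos of the same hour continued to differ in L1Md_T from 16 h on. The 8 embryos at 16 h lay at 182 to 506.9 CPM (median 257) and the 9 at 18 h at 175 to 701.9 (median 305). At 20 h the 5 embryos held 470.2, 268, 669.8, 318 and 499 CPM. The sample titles of all 5 end in b, a suffix taken up below, so for every row and sum at 20 h the hour and the suffix cannot be told apart. The 10 embryos at 22 h spread over 292 to 1549 CPM (median 728), the widest range of the cohort. At 24 h the 6 embryos lay at 294 to 737 CPM (median 559) and at 36 h the 8 embryos at 479 to 1160.2 (median 593). In the 7 morulae the level was 326 to 2099.7 CPM (median 1575). The lowest morula is replicate 4, whose library holds only 45 LINE-1 counts; the other 6 lay between 1079 and 2099.7 CPM. These 6 were above every embryo of 24 h.

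A like pattern was found in 1 ancient row, L1MEd. Of the 96 rows with a group median of at least 1 CPM, L1Md_T and L1MEd were the 2 whose highest and second highest medians fell in morulae and at 0 h. L1MEd lay at 41.3 to 119.5 CPM (median 58.3) in oocytes. Its values at 0 h were 531, 678, 929, 363 and 218 CPM, in the same order of embryos as L1Md_T, and at 12 h they were 96.3, 71, 103.5, 84.4 and 89.9 CPM. At 22 h the range was 97.6 to 792 CPM (median 373), at 36 h 119.4 to 361 (median 165) and in morulae 223 to 1539 (median 725). The number of L1Md_T counts per L1MEd count had group medians between 1.74 at 0 h and 3.38 at 36 h. Fractional counts, which can arise where a read is shared between places or features, made up 89.6% of the non-zero values of L1Md_T and 66.7% of those of L1MEd, against 87.5% for L1Md_F2; whether the L1Md_T and L1MEd rows draw on shared reads or transcripts was not tested.

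**Figure D1:**
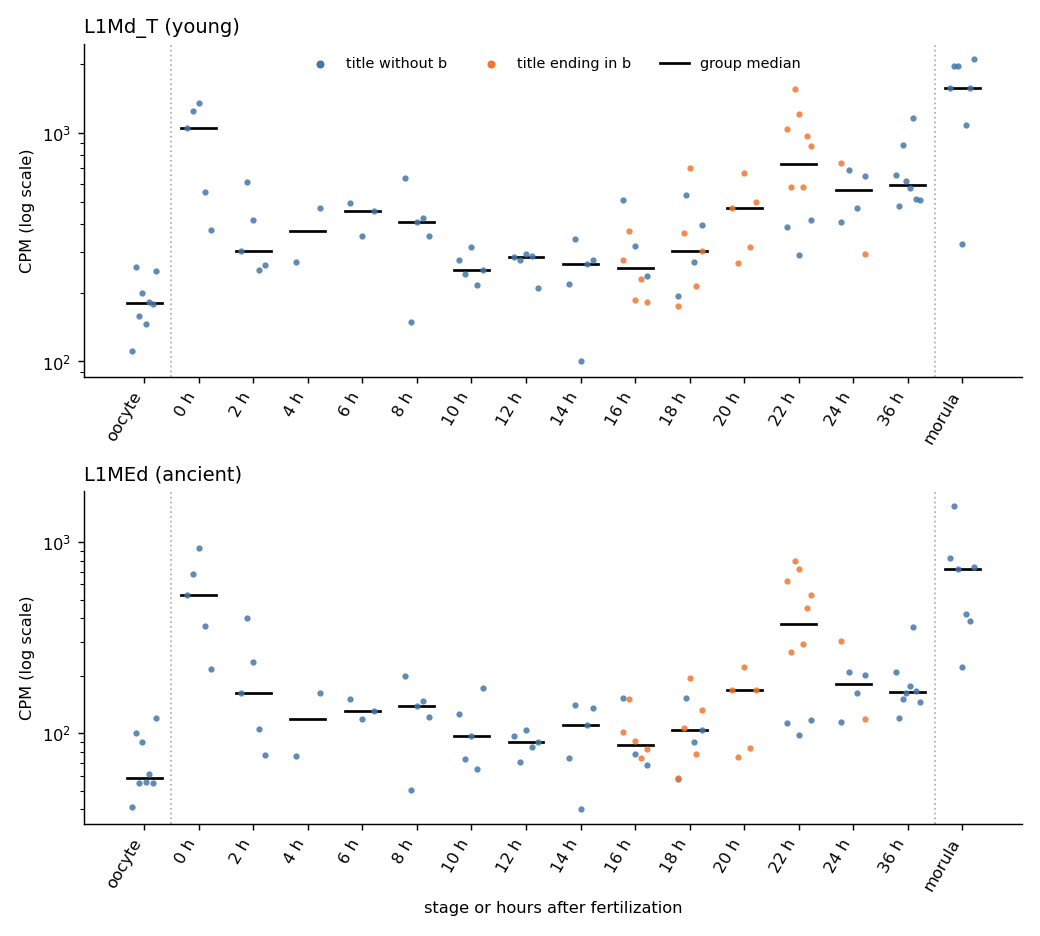
Level of L1Md_T (upper panel) and L1MEd (lower panel) in every library, in CPM on a log scale, by stage or hours after fertilization. Points are single oocytes or embryos, coloured by whether the sample title ends in b, bars are group medians, and dotted lines separate the batches; in both panels 0 h and morulae have the highest medians (1047 and 1575 CPM for L1Md_T) and the 22 h libraries split by title.

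The 5 other young rows peaked at 36 h instead. L1Md_F2, the largest of them, lay at 24.6 to 46.4 CPM (median 36.7) in oocytes and held 19, 25.9, 19.9, 29.5 and 21.1 at 0 h. It held 70.8, 56.8, 41, 49.2 and 33.8 CPM at 12 h, all 5 embryos above the highest 0 h embryo. Its range was 12.6 to 79.5 CPM (median 47.4) at 16 h, 53.4 to 121.1 (median 83.3) at 22 h and 40.9 to 229.7 (median 71.9) at 24 h. At 36 h it reached 253 to 976 CPM (median 422), with every embryo above every one of 24 h. Morulae were back at 44.9 to 111.6 CPM (median 68.7), below every 36 h embryo.

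L1Md_A, 1 of the types with copies that can still move, stayed at group medians of 8.65 to 17.7 CPM from the oocyte to 16 h. It had a median of 44 CPM at 20 h, lay at 16.7 to 61.8 (median 24) at 24 h and at 68.7 to 306 (median 150.1) at 36 h. In morulae it lay at 0 to 54.6 CPM (median 30.1), the 0 being replicate 4. At 0 counts the depth of that library allows up to 289 per 1000000 gene counts before TMM scaling, a unit other than the CPM beside it. L1Md_F lay at 9.28 to 36.2 CPM (median 15.4) at 24 h, 26.6 to 102.03 (median 57.6) at 36 h and 4.3 to 34.4 (median 8.27) in morulae. The highest morula was again replicate 4, where the value rests on very few counts, and the next lay at 12.5 CPM. L1Md_F3 lay at 9.95 to 69.9 CPM (median 11.6) at 24 h, 31.4 to 161 (median 61.2) at 36 h and 0 to 31.3 (median 19.2) in morulae. L1Md_Gf was the least abundant, and its monomers resemble those of the F type. It had no count in the 10 embryos of 4 h, 6 h and 8 h, whose summed depth allows up to 0.176 per 1000000 gene counts before TMM scaling. It had 2 counts over the 5 embryos of 0 h. It lay at 0 to 3.6 CPM (median 1.71) at 24 h, 5.07 to 29.3 (median 14.5) at 36 h and 0 to 10.9 (median 6.64) in morulae. Each of these 5 rows thus had its highest group median at 36 h, where L1Md_T did not.

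**Figure D2:**
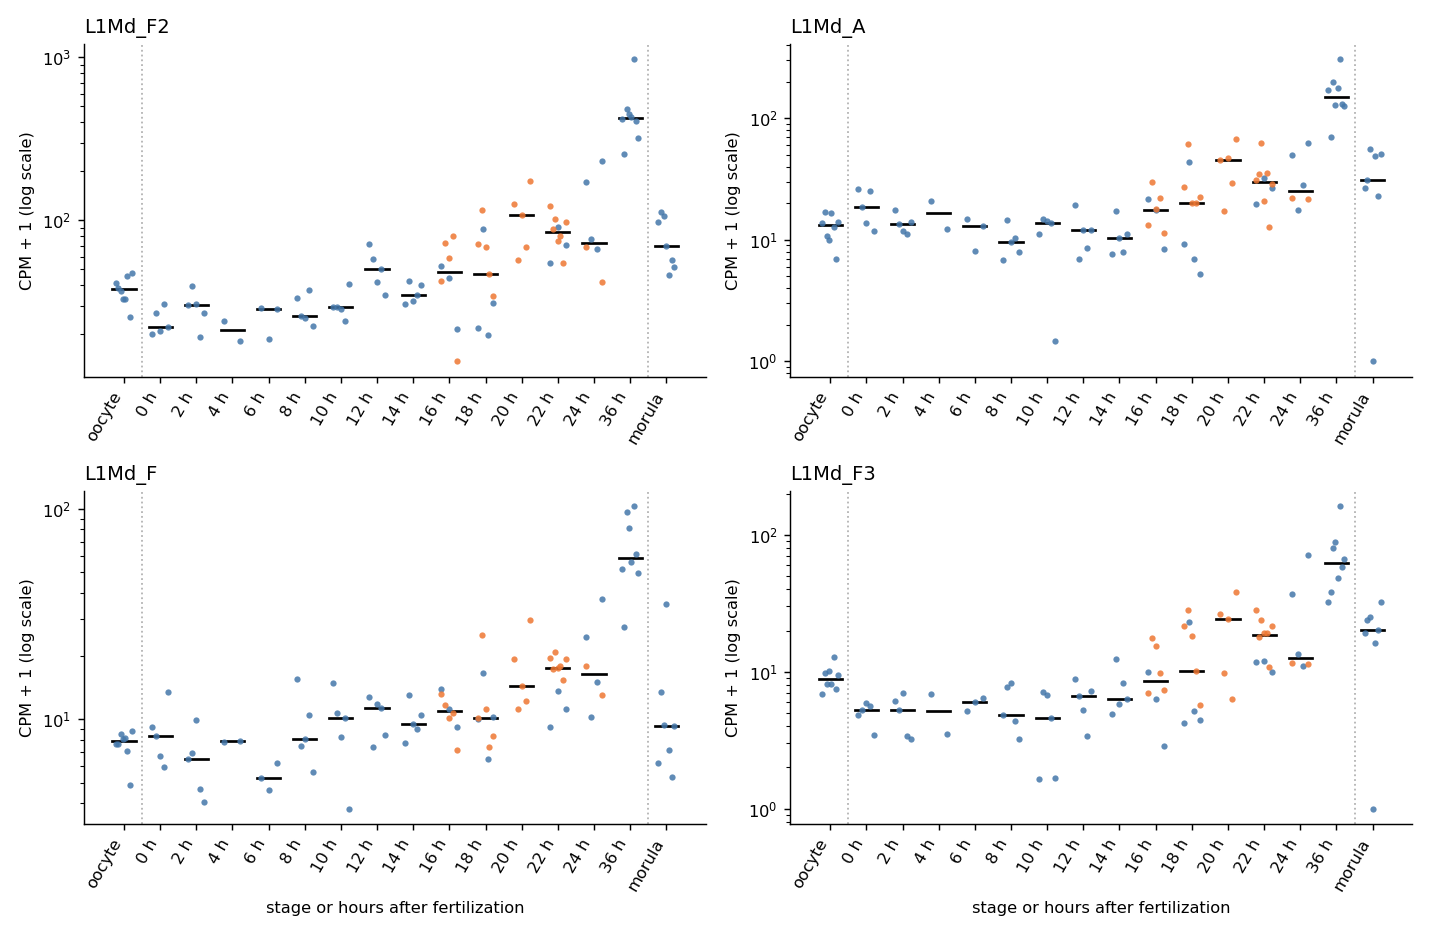
Level of L1Md_F2, L1Md_A, L1Md_F and L1Md_F3 in every library, as CPM + 1 on a log scale, by stage or hours after fertilization. Points are single oocytes or embryos (orange where the title ends in b), bars are group medians and dotted lines separate the batches; all 4 rows have their highest median at 36 h (422 CPM for L1Md_F2) and a lower one in morulae (68.7 CPM), relative to gene counts.

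Most older rows also peaked at 36 h. That held for 65 of the 96 LINE-1 rows with a group median of at least 1 CPM, among them all 12 L1_ and L1VL rows. L1_Mur2, a rodent element, lay at 91.7 to 115.9 CPM (median 103.1) in oocytes, 95.9 to 629 (median 179.8) at 24 h, 273 to 1224 (median 465) at 36 h and 26.4 to 62.9 (median 41.9) in morulae. The L1M rows differed among themselves. L1M4 had medians of 101.03 CPM in oocytes, 158 at 12 h and 170.0 at 36 h, and 37.1 in morulae. L1MA4 had its highest median at 8 h, 159 CPM, against 66.4 in oocytes and 93.7 at 36 h. L1MB8 had medians of 105.2 CPM at 0 h, 54.9 at 16 h and 138.5 at 36 h. L1MC1 was highest at 0 h, with a median of 114.5 CPM. L1MD had medians of 20.2 CPM in oocytes and 90.9 at 36 h, and L1PB4 did not exceed 2.22 in any group median.

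Summed without L1Md_T, the young rows had medians of 63.9 CPM in oocytes and in embryos of 0, 16, 20 and 24 h of 55.2, 85.6, 191 and 117.5 CPM. They lay at 401 to 1574 CPM (median 697) at 36 h and 103.1 to 203 (median 149.8) in morulae. The older rows without L1MEd had medians of 1696 CPM in oocytes, 3292 at 24 h, 5138 at 36 h and 983 in morulae. For each 100 counts of older rows without L1MEd there were thus 2.65 to 4.34 (median 3.86) young counts without L1Md_T in oocytes, and 2.03 to 3.27 (median 2.78) at 0 h. At 24 h there were 3.51 to 9.44 (median 5.32), at 36 h 11.4 to 16.8 (median 13.6), and in morulae 11.5 to 20.7 with a median of 13.6. Without L1Md_T and L1MEd, every 36 h embryo and every morula lay above every 24 h embryo in this ratio, which does not depend on the scaling to gene counts. The share of L1Md_T in all LINE-1 counts moved differently, with medians of 9.38% in oocytes, 30.1% and 9.42% in embryos of 0 and 12 h, 8.9% in those of 36 h and 46.4% in morulae. With L1Md_T and L1MEd included, the ratio of young to older rows overlapped between 24 h and 36 h. Per 100 older counts there were 15.8 to 39.4 young counts (median 21.0) at 24 h and 21.3 to 32.9 (median 24.3) at 36 h. The median in morulae was 106.9, and the lowest morula, replicate 4 at 38.3, lay below the highest 24 h embryo. No test was run on these sums.

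**Figure D3:**
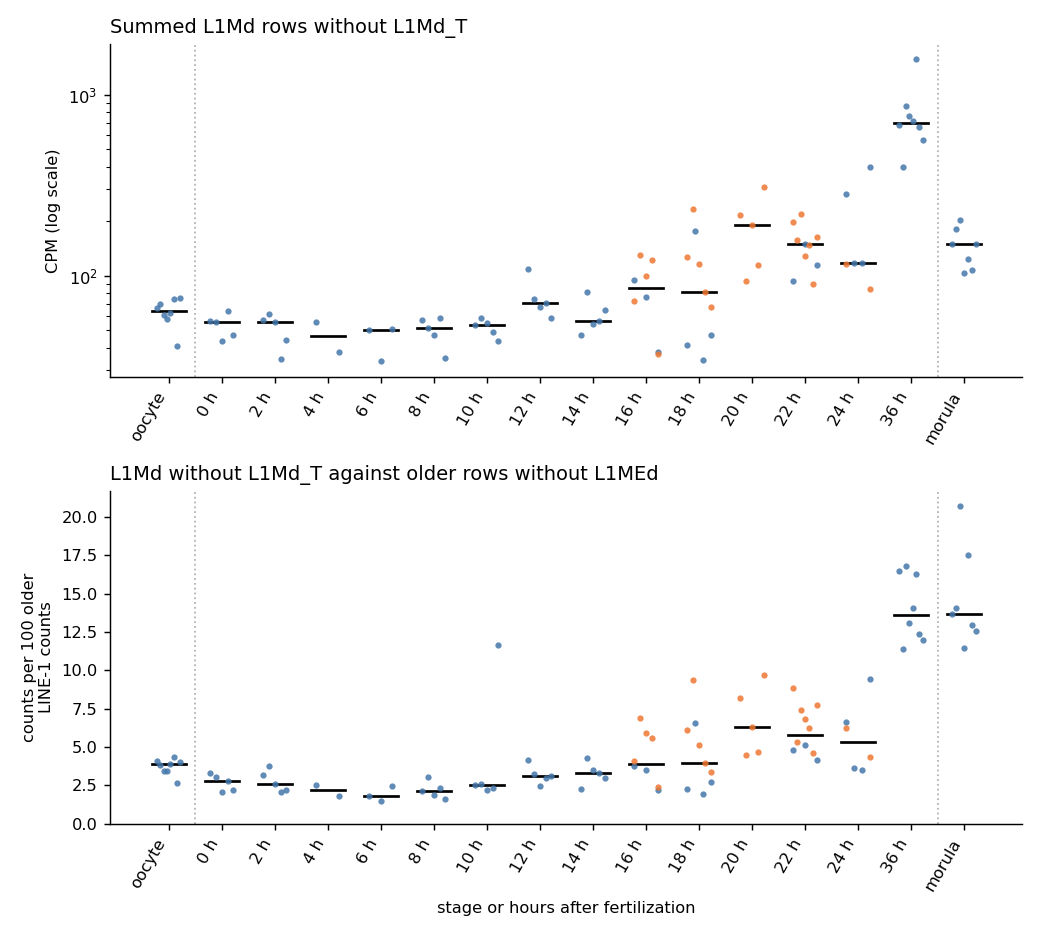
Summed L1Md rows without L1Md_T in CPM on a log scale (upper panel) and the same sum per 100 counts of older LINE-1 rows without L1MEd (lower panel), in every library, by stage or hours after fertilization. Points are single oocytes or embryos (orange where the title ends in b) and bars are group medians; the ratio has medians of 13.6 at 36 h and 13.6 in morulae, against 5.32 at 24 h.

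Changes were tested row by row with edgeR's quasi-likelihood test in 7 comparisons, all genes and repeats in 1 table, and a row is called where its Benjamini-Hochberg adjusted p is under 0.05. Positive log2 changes mean higher in the later stage. Several comparisons share a group (0 h, 12 h, 16 h, 24 h or 36 h), so they are given side by side and no agreement between them is counted. Low rows were not tested: between 60 and 84 LINE-1 rows passed the filter on low counts, depending on the comparison. The plot of all tested rows shows the 7 comparisons beside each other.

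**Figure D4:**
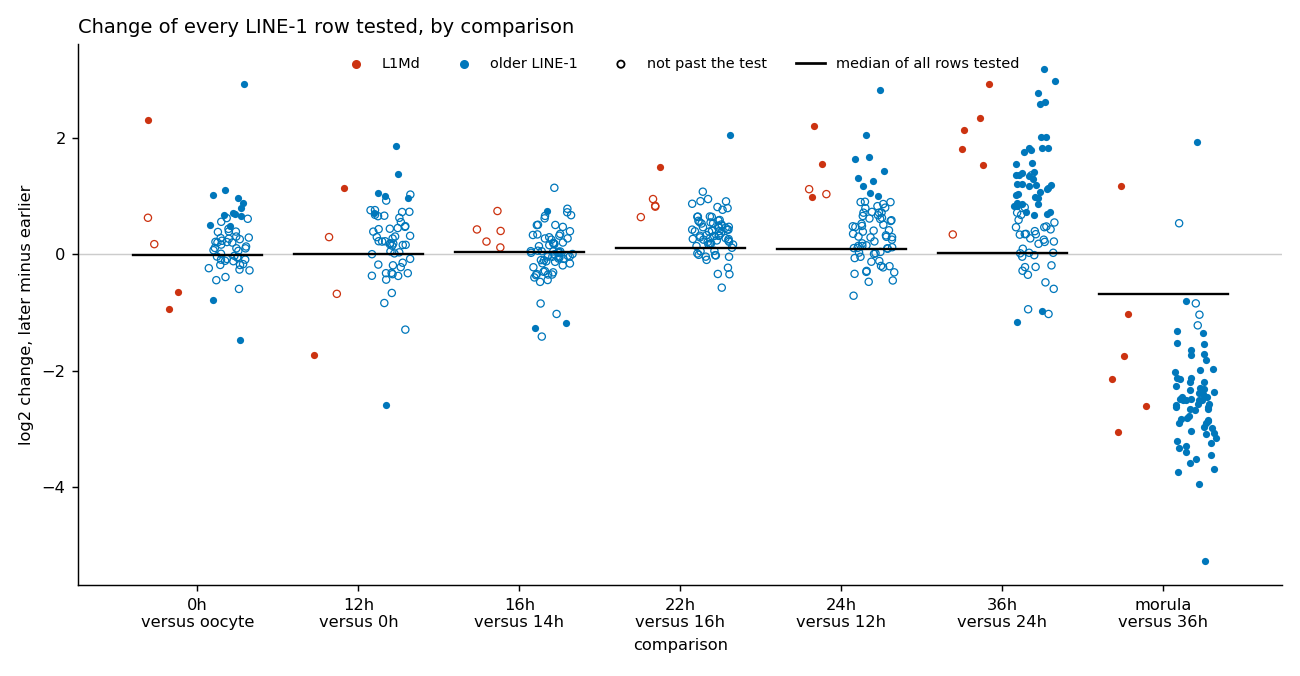
Log2 change of every LINE-1 row tested in the 7 comparisons, later minus earlier stage. Red points are L1Md rows, blue points older rows, open points rows that did not pass the test, and black lines the median of all rows tested; at 36 h against 24 h 5 of 6 L1Md rows lie higher past the test, and in morulae against 36 h 70 of 76 LINE-1 rows lie lower on the scaling to gene counts, as opposed to 8 on a scaling to the repeat rows.

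At 0 h against oocytes, L1Md_T and L1MEd rose, and L1Md_F2 and L1Md_F3 passed the test with falls that did not hold in every fit. L1Md_T changed by 2.30 ± 0.30 (log2 change ± SE; edgeR adjusted p = 3.7e-05), from a mean of 185 ± 50.1 CPM (SD, n = 8) to 914 ± 427 (SD, n = 5), and L1MEd by 2.92 ± 0.35 (log2 change ± SE; edgeR adjusted p = 1.8e-05). L1Md_F2 fell by 0.65 on the log2 scale (edgeR adjusted p = 0.00976) and L1Md_F3 by 0.94 (edgeR adjusted p = 0.0263). L1Md_A had a log2 change of 0.63 and L1Md_F of 0.17, neither past the test; L1Md_Gf was too low to test. The call of L1Md_F3 was lost in 4 of the 13 fits that each left out 1 library (without oocyte replicate 4 or 6, or 0 h replicate 1 or 5; adjusted p up to 0.069). Libraries with over 500 CPM of summed cumulus and granulosa or of blood and oviduct markers were oocyte replicates 1, 2, 5 and 6 and 0 h replicates 1 and 5; without them neither L1Md_F2 (adjusted p = 0.277) nor L1Md_F3 (adjusted p = 0.292) passed edgeR's test, and L1Md_T changed by 2.45 (log2).

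Among all LINE-1 rows, 13 of 62 tested were called higher at 0 h and 4 lower, where 22.8% and 22.1% of all 9953 rows tested were called in those directions (45% in either). Of the older rows 12 of 57 were higher and 2 lower. The median log2 change was 0.17 for the 5 young rows and 0.20 for the older ones, beside -0.022 for all rows. L1ME rows had 5 of 12 called higher, and L1MC rows 3 of 9. After L1MEd and L1Md_T, L1MEf had the largest rise (1.11). L1MB8 (0.70), L1MC1 (0.66) and L1MD (0.68) also rose, whereas L1_Mur2 (-0.18), L1MA4 (-0.081) and L1M4 (0.21) did not pass. The largest falls were in L1MA5A (-1.47; adjusted p = 0.0524 in edgeR without 0 h replicate 1), L1Md_F3 and L1MC4a (-0.78; adjusted p = 0.131 in edgeR without the libraries of high marker level). The 0 h values lay wholly above those of oocytes in 7 LINE-1 rows and wholly below in 2, against 12.2% and 9.69% of all rows. Of the 20 Lx rows tested, 5 were lower, with a median log2 change of -0.15. In a fit of all 96 libraries together, which shares 1 estimate of the spread, 5 LINE-1 rows were called.

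From 0 h to 12 h L1Md_T and L1MEd fell. L1Md_T changed by -1.74 ± 0.28 (log2 change ± SE; edgeR adjusted p = 0.00014) and L1MEd by -2.59 ± 0.30 (log2 change ± SE; edgeR adjusted p = 6.5e-06); in both, all 5 embryos of 12 h lay below all 5 of 0 h. L1Md_F2 rose by 1.13 ± 0.26 (log2 change ± SE; edgeR adjusted p = 0.00291). L1Md_A (-0.68) and L1Md_F (0.29) did not pass the test, and L1Md_F3 and L1Md_Gf were not tested. Of 60 LINE-1 rows tested, 7 were called higher and 2 lower, the latter being L1Md_T and L1MEd, where 19.6% and 18.8% of all rows were called (38.5% in either direction). The rises with the largest log2 change were in L1M3e (1.86), L1MC4a (1.38) and L1Md_F2. L1MA4 (1.001) and L1_Mur2 (0.70) also rose. The call of L1_Mur2 was lost on library size alone (0.42; edgeR adjusted p = 0.0611) and on a scaling to the repeat rows (0.44; 0.0539). In 1 fit of all 96 libraries neither L1_Mur2 (edgeR adjusted p = 0.234) nor L1MA4 (0.155) passed. The log2 changes of L1M4 (0.30), L1MB8 (-0.34), L1MC1 (-0.37) and L1MD (-0.19) did not pass. The median log2 change was -0.19 over the 4 young rows, 0.22 over the 56 older ones and 0.00051 over all rows; over all LINE-1 rows it turned from 0.22 to -0.045 on library size alone and -0.021 on the scaling to the repeat rows. Groups did not overlap in 6 rows that were higher and 2 that were lower (11.8% and 13.4% of all rows). Among Lx rows 3 of 20 were higher.

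Between 14 h and 16 h few LINE-1 rows passed the test. None of the 5 young rows tested passed in edgeR or DESeq2, and 1 (L1Md_A) had an unadjusted edgeR p under 0.05: L1Md_T had a log2 change of 0.22, L1Md_A of 0.74, L1Md_F3 of 0.43, L1Md_F2 of 0.40 and L1Md_F of 0.12. Of 74 LINE-1 rows 1 was called higher and 2 lower, where 5.57% and 6.37% of all rows were (11.9% in either direction). The groups did not overlap in 1 row that was higher and 1 that was lower, against 2.44% and 1.53% of all rows. The rise was in L1M4c (0.75), and the falls were in L1M4a1 (-1.26) and L1ME2z (-1.18). None of the 3 calls was stable: L1M4c lost its call in 7 of the 13 fits that each left out 1 library, L1M4a1 in 4 of the 13 and L1ME2z in 3 of the 13, with 14 h replicate 5 among the libraries in each case. All 21 Lx rows had a log2 change above 0, with a median of 0.27 and 1 called, and the median of repeat rows other than LINE-1 was 0.34, beside 0.045 for LINE-1; on a scaling to the repeat rows the median of all rows moved to -0.21.

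From 16 h to 22 h L1Md_T and L1MEd rose. L1Md_T changed by 1.49 ± 0.31 (log2 change ± SE; edgeR adjusted p = 0.0117) and L1MEd by 2.05 ± 0.40 (log2 change ± SE; edgeR adjusted p = 0.00718). They were the 2 LINE-1 rows called of 75 tested, and none was called lower (1 at an unadjusted edgeR p under 0.05, none by DESeq2), where 0.385% and 2.18% of all 12196 rows were (2.57% in either direction). The other young rows did not pass in edgeR: L1Md_F3 had a log2 change of 0.95, L1Md_A of 0.83, L1Md_F2 of 0.82 and L1Md_F of 0.64. Their unadjusted edgeR p was under 0.05 in all 4. With DESeq2 7 LINE-1 rows were called. The median log2 change was 0.83 over 5 young rows and 0.37 over 70 older ones, beside 0.11 over all rows, and the 2 groups overlapped in every LINE-1 row (of all rows 0.0574% lay wholly higher and 0.656% wholly lower).

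The rise in L1Md_T and L1MEd lay in libraries whose titles end in b, a suffix the sources used here do not explain. At 22 h, L1Md_T lay at 292 to 418 CPM in the 3 libraries without the suffix and at 579.9 to 1549 in the 7 with it. L1MEd lay at 97.6 to 117.1 and 266 to 792 CPM. Neither row overlapped between the titles. At 16 h, L1Md_T lay at 237 to 506.9 CPM in 3 libraries without the suffix and 182 to 371 in 5 with it, which overlapped. Among libraries without the suffix the change from 16 h to 22 h was 0.0089 for L1Md_T and 0.09 for L1MEd (log2). Among those with it, the changes were 1.97 and 2.40. The difference itself, tested as an interaction of hour and suffix chosen after the data had been seen, was 2.32 ± 0.50 for L1MEd (edgeR adjusted p = 0.0159) and 1.97 ± 0.46 for L1Md_T (edgeR adjusted p = 0.0254). These were 2 of 80 LINE-1 rows called, against 402 of 14398 rows in all. L1Md_F2 overlapped between the titles at 22 h, at 53.4 to 90.6 and 53.4 to 121.1 CPM.

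Markers of other cells moved with the titles as well. The 8 blood and oviduct markers, chiefly haemoglobin genes and the oviduct glycoprotein Ovgp1, summed to 6.04 to 7.01 CPM in the 22 h libraries without the suffix and 121.7 to 5585 in those with it; at 16 h they summed to 3.24 to 7.8 and 25.3 to 2008 CPM. The white blood cell gene Ptprc stayed at or under 0.155 CPM at 22 h. At 16 h these markers were thus high in some libraries whose L1Md_T was not. Without every library over 500 CPM of either list of markers, the 16 h to 22 h change was 1.07 for L1Md_T (edgeR adjusted p = 0.202) and 1.46 for L1MEd (edgeR adjusted p = 0.163). The part these cells play in the LINE-1 values was not tested.

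**Figure D5:**
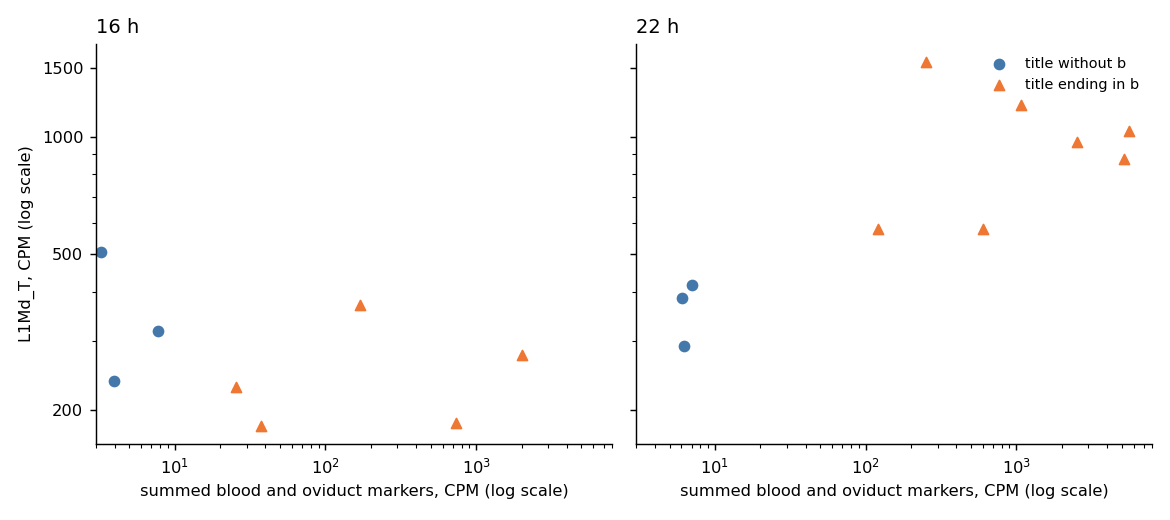
L1Md_T against the sum of 8 blood and oviduct markers in each embryo at 16 h (left) and 22 h (right), both axes in CPM on log scales. Circles are libraries whose title has no b and triangles those whose title ends in b; at 22 h the triangles lie at 579.9 to 1549 CPM of L1Md_T and the circles at 292 to 418 CPM, while at 16 h they overlap.

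From 12 h to 24 h 3 of 5 young rows rose relative to gene counts, and none of them on a scaling to the repeat rows. Of the older rows 10 of 71 were called higher, a share near that of all rows (13.9%). L1Md_F3 had the largest change of the young rows, 2.21 ± 0.60 (log2 change ± SE; edgeR adjusted p = 0.017), followed by L1Md_A at 1.56 ± 0.41 (log2 change ± SE; edgeR adjusted p = 0.0157) and L1Md_T at 0.98 ± 0.23 (log2 change ± SE; edgeR adjusted p = 0.00963). L1Md_F2 (1.12) and L1Md_F (1.03) did not pass. The 24 h embryos were uneven: replicates 1 and 4 held 170.3 and 229.7 CPM of L1Md_F2, and the other 4 at most 76.3 CPM. The 8 markers of the 2-cell stage, Zscan4 and other genes of genome activation, summed to 1624 and 2213 CPM in replicates 1 and 4 and to 57.2 to 267 in the other 4. The 2 embryos of 24 h whose titles end in b (replicates 5 and 6) also stood apart: their summed older rows lay at 2040.1 to 2165 CPM against 3426 to 4446 in the 4 without the suffix, and repeats took 5.44 to 6.29% of their counts against 14.8 to 18%. Of 76 LINE-1 rows 13 were called higher and none lower (none at an unadjusted edgeR p under 0.05 or by DESeq2), where 7.99% of all rows were lower (21.9% called in either direction). Without 24 h replicate 4 the count was 8, and without the 2 libraries of 24 h whose titles end in b it was 32, with 5 young rows. The largest rises were in L1MEg2 (2.81, from 7 counts over the 12 h embryos), L1Md_F3 and L1_Mus2 (2.04). L1MEd changed by 1.05. The log2 changes of L1_Mur2 (0.89), L1MD (0.73), L1MA4 (-0.45), L1M4 (0.039), L1MB8 (0.018) and L1MC1 (-0.044) did not pass. The median log2 change was 1.12 over the young rows, 0.39 over the older rows, 0.67 over the other repeats and 0.088 over all rows. The 24 h embryos lay wholly above those of 12 h in 4 LINE-1 rows (6.95% of all rows lay wholly higher and 3.78% wholly lower). On a scaling to the repeat rows, 6 LINE-1 rows were called. Of Lx rows 7 of 21 were higher.

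The most LINE-1 rows rose between 24 h and 36 h, the time of the late 2-cell embryos. All young rows but L1Md_T rose: L1Md_Gf by 2.93, L1Md_A by 2.34 ± 0.37 (log2 change ± SE; edgeR adjusted p = 8.3e-05), L1Md_F2 by 2.13 ± 0.39 (log2 change ± SE; edgeR adjusted p = 0.00029), L1Md_F by 1.80 and L1Md_F3 by 1.54. L1Md_T had a log2 change of 0.34 (edgeR adjusted p = 0.29), and of -0.59 on a scaling to the repeat rows. The 36 h values of L1Md_A, L1Md_F2 and L1Md_Gf lay wholly above those of 24 h. L1Md_Gf passed the filter on low counts only in comparisons that hold the 36 h group, where its level was highest. Its call is therefore no independent support for a rise of the young rows. L1Md_F3 is the least firm of these, at an adjusted p of 0.0836 in edgeR without the 24 h libraries whose titles end in b. Of 84 LINE-1 rows tested 46 were higher and 2 lower, where 29.3% and 24.5% of all 13225 rows were (53.8% in either direction). The other repeat rows rose to a like extent: 269 of 505 tested (53.3%) were higher and 18 lower, beside 54.8% of LINE-1 rows higher. The median log2 change was 0.83 over all LINE-1 rows tested and 0.81 over the other repeats. The groups did not overlap in 19 LINE-1 rows, all higher at 36 h (of all rows 11.4% lay wholly higher and 10.8% wholly lower).

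By age, 5 of 6 L1Md rows were called higher, 12 of 12 L1_ and L1VL rows, 3 of 8 L1MA, 4 of 7 L1MB, 5 of 11 L1MC, 3 of 6 L1MD, 7 of 21 L1ME and 7 of 13 other L1M rows. The median log2 change was 1.97 for L1Md, 1.56 for L1_ and L1VL and 0.63 for the L1M rows tested. Both the L1Md count and the L1Md median include L1Md_Gf, which passed the filter only where 36 h entered. Over all rows it was 0.02, over the other repeats 0.81 and over Lx rows 0.52. On a scaling to the repeat rows the median of all rows moved to -0.81 and that of LINE-1 rows to 0.06, and the 4 young rows called there were all higher. The largest rises were in L1ME3F (3.19), L1MCc (2.98) and L1Md_Gf. L1MB8 (0.84), L1MD (0.99) and L1_Mur2 (1.03) rose, and on the scaling to the repeat rows none of the 3 passed the test (0.061, 0.19 and 0.21). L1MEd (0.017), L1M4 (0.22), L1MA4 (-0.042) and L1MC1 (0.024) did not pass. The 2 falls, in L1M (-1.16) and L1MEj (-0.97), and the rise of L1_Mur2 were lost in 8 of the 14, 12 of the 14 and 8 of the 14 fits that each left out 1 library, 24 h replicates 2 and 3 and 36 h replicates 4 and 7 among them in each case.

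Between 36 h and the morula nearly all LINE-1 rows fell relative to gene counts, and L1Md_T and L1MEd rose. L1Md_T changed by 1.18 ± 0.35 (log2 change ± SE; edgeR adjusted p = 0.00464) and L1MEd by 1.93 ± 0.36 (log2 change ± SE; edgeR adjusted p = 4.8e-05). Without morula replicate 4, the shallow library, the changes were 1.32 and 2.04. L1Md_F fell by 3.06, L1Md_F2 by 2.60, L1Md_A by 2.14, L1Md_F3 by 1.74 and L1Md_Gf by 1.02 on the log2 scale. The fall of L1Md_Gf was lost in 10 of the 15 fits that each left out 1 library (adjusted p up to 0.118), but for 36 h replicates 1, 5 and 8 and morula replicates 4 and 7. Of 76 LINE-1 rows tested 2 were higher and 70 lower, where 27.2% and 45.5% of all 11738 rows were (72.7% in either direction). Morulae lay wholly below the 36 h embryos in 54 LINE-1 rows and above them in none (of all rows 24.3% lay wholly lower and 5.72% wholly higher).

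The fall extended over the repeat rows. The median log2 change was -1.94 over young rows, -2.50 over older rows, -2.65 over the other repeats, -3.08 over Lx rows and -0.69 over all rows. On a scaling to the repeat rows the median of all rows moved to 1.79 and that of LINE-1 rows to -0.11, 19 LINE-1 rows were called, and L1Md_A (0.32), L1Md_F3 (0.72) and L1Md_Gf (1.44) were above 0, whereas L1Md_T (3.57) and L1MEd (4.30) kept their direction. L1Md_F (-0.61) and L1Md_F2 (-0.17) did not pass there. Repeat rows as a whole went from a median of 19.9% of all counts at 36 h to 9.28% in morulae. Relative to gene counts, L1_Mur2 fell by 3.68, L1MA4 by 3.21, L1MB8 by 2.86, L1MD by 2.50, L1MC1 by 2.14 and L1M4 by 2.13; the last 2 were above 0 on the scaling to the repeat rows, and L1MB8 and L1MD did not pass there. L1MEi had the largest change, with 159 counts over the 36 h embryos and 2 over the morulae, a ratio of 66.9 per gene count (exact 95% interval 18.2 to 557, counting error only). L1M4a1 (-3.94) and L1MA9 (-3.74) followed.

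Within some of the stages examined, oocytes or embryos with more L1Md_T also held more L1MEd. On log2 CPM, Pearson's and Spearman's coefficients in oocytes were r = 0.93 and rho = 0.90 (n = 8; exact permutation, two-sided, adjusted p = 0.0022 and 0.016). At 18 h they were r = 0.94 and rho = 0.92 (n = 9; exact permutation, two-sided, adjusted p = 0.00191 and 0.013), and at 24 h r = 0.91 and rho = 0.94 (n = 6; exact permutation, two-sided, adjusted p = 0.0428 and 0.0467). In the 22 h libraries whose titles end in b they were r = 0.96 and rho = 0.96 (n = 7; exact permutation, two-sided, adjusted p = 0.00347 and 0.013); no pooled value is given at 22 h, where the titles formed separate clusters. Without the 2 libraries farthest from the median of L1Md_T, r was 0.92, 0.86, 0.85 and 0.86 in these groups. The relation was less firm in the remaining groups. At 16 h r was 0.75 and rho 0.55 (n = 8; adjusted exact permutation p = 0.0604 and 0.342), and r rested on 2 libraries (-0.045 without them). In morulae r was 0.80 (0.48 without 2) and rho 0.54 (n = 7; adjusted exact permutation p = 0.0491 and 0.412). At 36 h r was 0.78 and rho 0.69 (n = 8; adjusted exact permutation p = 0.0568 and 0.162).

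With L1Md_F2, in contrast, L1Md_T had r between 0.15 and 0.42 in 6 of the 7 groups, with adjusted exact permutation p of at least 0.431. The exception was 36 h, at r = 0.90 and rho = 0.93 (n = 8; exact permutation, two-sided, adjusted p = 0.00191 and 0.013), and 0.78 without 2 libraries. The embryo of 36 h replicate 6 held the most of both rows, 1160.2 CPM of L1Md_T and 976 CPM of L1Md_F2. In all 14 relations were computed, and p-values were adjusted over them. All values in a library share its depth and scaling, which can make rows move together.

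Genes known to restrain or assist LINE-1 were read from 6 lists and are given relative to gene counts. Of all rows tested, 22.8% were called higher and 22.1% lower at 0 h, 19.6% and 18.8% at 12 h, and 5.57% and 6.37% at 16 h. These shares were 0.385% and 2.18% at 22 h, and 13.9% and 7.99% at 24 h. They were 29.3% and 24.5% at 36 h, and 27.2% and 45.5% in morulae. Many list counts lie near these shares, and no list was tested against them. KAP1 (Trim28) and the histone methyltransferase SETDB1 silence repeats through methylation of histone H3 at lysine 9, and the HUSH complex, with Mphosph8 among its parts, silences young LINE-1. Of the KAP1 and HUSH genes tested, 3 of 8 rose and 3 fell at 0 h against oocytes, 2 of 8 rose and 2 fell at 12 h against 0 h, and 2 of 10 rose and 1 fell at 16 h against 14 h. For the same list, 1 of 10 rose and 2 fell at 24 h against 12 h, 1 of 10 rose and 4 fell at 36 h against 24 h, and 3 of 10 rose and 3 fell in morulae against 36 h, with median log2 changes of -0.092 and -0.072 in the last pair. Setdb1 fell at 12 h (-1.20), Mphosph8 fell at 36 h (-2.18) and Trim28 rose in morulae (2.84). Of the other genes of this histone mark tested, 4 of 9 rose at 0 h against oocytes, 4 of 9 fell at 12 h against 0 h, and 1 of 8 rose at 16 h against 14 h. For the same list, 2 of 9 rose and 1 fell at 24 h against 12 h, 2 of 10 rose and 3 fell at 36 h against 24 h, and 3 of 10 rose and 4 fell in morulae against 36 h, with median log2 changes of -0.56 and -0.27 in the last pair. The histone demethylase gene Kdm4c rose at 36 h (5.21) while the demethylase gene Kdm1a fell (-2.45).

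The counts of the next lists stand beside the same shares of all rows, given in the paragraph before. DNA methylation silences the promoters of young LINE-1 in most cells. Of the DNA methylation genes tested, 6 of 10 rose and 1 fell at 0 h against oocytes, 1 of 9 rose and 6 fell at 12 h against 0 h, and 1 of 11 rose at 16 h against 14 h. For the same list, 1 of 11 rose at 24 h against 12 h, 1 of 11 rose and 5 fell at 36 h against 24 h, and 2 of 11 rose and 3 fell in morulae against 36 h, with median log2 changes of -0.71 and 0.55 in the last pair. Dnmt1, the maintenance methyltransferase, rose at 0 h (1.79), fell at 12 h (-2.71) and fell at 36 h (-3.89). Dnmt3l, a cofactor of the de novo enzymes, rose at 0 h (3.12) and fell at 12 h (-2.49). Tet3, which oxidises methylcytosine in the zygote, fell at 36 h (-2.61). The piRNA pathway cleaves and silences transposons in germ cells. Of the piRNA genes tested, 5 of 13 rose and 3 fell at 0 h against oocytes, 2 of 12 rose and 2 fell at 12 h against 0 h, and 2 of 15 rose at 16 h against 14 h. For the same list, 4 of 15 rose and 2 fell at 24 h against 12 h, 3 of 17 rose and 5 fell at 36 h against 24 h, and 2 of 15 rose and 9 fell in morulae against 36 h, with median log2 changes of 0.006 and -1.74 in the last pair. Tdrd12 (-3.58) and Asz1 (-3.26) fell at 36 h and Piwil2 rose (3.30).

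The last 2 lists are likewise given beside those shares of all rows. Of the genes that restrict LINE-1 RNA or cDNA tested, 2 of 11 rose and 1 fell at 0 h against oocytes, 3 of 10 fell at 12 h against 0 h, and 1 of 13 rose at 16 h against 14 h. For the same list, 3 of 12 rose and 1 fell at 24 h against 12 h, 3 of 13 rose and 3 fell at 36 h against 24 h, and 4 of 14 rose and 8 fell in morulae against 36 h, with median log2 changes of -0.59 and -1.51 in the last pair. Dicer1, which makes small RNAs, fell at 36 h (-1.98), and Rnaseh2b, part of the RNase H2 that acts on hybrids of RNA and DNA, rose in morulae (5.48). Of the partners and activators of LINE-1 RNA tested, 3 of 8 rose and 2 fell at 0 h against oocytes, 3 of 8 rose and 4 fell at 12 h against 0 h, and 1 of 8 rose at 16 h against 14 h. For the same list, none of 7 passed in edgeR at 24 h against 12 h (none at an unadjusted p under 0.05 or by DESeq2), 5 of 11 rose and 3 fell at 36 h against 24 h, and 6 of 10 rose and 1 fell in morulae against 36 h, with median log2 changes of 0.77 and 1.24 in the last pair. Pabpc1, a poly(A)-binding protein found in LINE-1 particles, rose at 36 h (3.58) and in morulae (3.17). At 22 h against 16 h, where L1Md_T and L1MEd rose, 3 genes over the 6 lists were called, all lower: Dnmt1 (-0.91), the histone demethylase gene Kdm4a (-1.19) and the HUSH gene Pphln1 (-0.65). Without the libraries whose titles end in b their log2 changes were -1.45, -0.43 and -0.42 (edgeR adjusted p = 0.117, 0.773 and 0.554), so that of Dnmt1 was larger while its test missed the threshold on fewer libraries. Without the libraries of high marker level they were -1.12, -1.09 and -0.42 (edgeR adjusted p = 0.0642, 0.23 and 0.336). Kdm4a lost its call in 14 of the 18 fits that each left out 1 library, all but those without 16 h replicate 1 or 2 or 22 h replicate 1 or 4 (adjusted p up to 0.119). Pphln1 lost its call in 8 of the 18, namely on leaving out 16 h replicate 2, 3, 4, 6, 7 or 8 or 22 h replicate 8 or 9 (adjusted p up to 0.0723). No relation between these genes and LINE-1 was tested.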

How the data were processed

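RNA of 96 single oocytes and embryos was made into libraries with SMART-Seq v4 and Nextera XT, per the labels' protocols. Per the submitters' processing notes, reads were trimmed with Trimmomatic 0.39, aligned with STAR and counted with featureCounts on mm10; the repeat annotation, the strand setting and the treatment of reads with several places are not given in the sources used here. The deposited table holds estimated counts, unscaled, 1 column per library; fractions make up 28.4% of non-zero gene values and 72.4% of LINE-1 values (off a whole number by more than 1e-06). No library was identical to another of its group.

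Counts were rounded to whole numbers and tested with edgeR 4.0.16 (R 4.3.3; quasi-likelihood F test, two-sided, filterByExpr, TMM factors of the gene rows), gene and repeat rows in 1 table and each fit holding the 2 groups compared, with Benjamini-Hochberg adjustment over all rows tested and a threshold of 0.05. The test design had named whole counts; the fractional values were rounded, and a fit on unrounded values was an alternative. Levels are CPM on TMM factors of the gene rows over all 96 libraries, whereas each fit took its factors from the libraries it held. Whether groups overlap was read from these levels. The script was tested on simulated counts. Groups came from the labels, and title numbers served only as a block. Alternatives were library size alone, scaling to repeat rows, DESeq2 1.42.0, no filter, 1 fit of all libraries, unrounded counts, libraries left out singly, by title or by marker level, and the block. Named rows are every L1Md row, the most abundant row of each older class, the 3 largest rises and falls past the test in each comparison, and regulators among the 2 largest rises and falls of each list that kept their call, beside those of 22 h. Members, classes and lists were chosen with earlier results of these data known. Of 55401 gene identifiers 55141 matched a symbol.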

Additional observations from a re-analysis of the deposited data

Results flagged for a closer look

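Each measure was examined in each group of 4 to 10 libraries, and in 15 of these pairs of measure and group (12%) 1 library stood apart from the rest of its group. Chance does so in about 1 in 20 where values are normally distributed. CPM values need not be, L1Md_Gf is mostly 0 in some groups, and the pairs share rows and libraries. The 12% can therefore not be set against that rate. The embryo of 36 h replicate 6 was the highest of its group in 5 measures: the summed young rows (2734 CPM, the next being 1752), the summed older rows (10051 CPM against 6011), L1Md_F2 (976 CPM against 479), L1Md_F3 (161 CPM against 87.6) and L1MEd (361 CPM against 208). At 22 h, replicate 6 was highest in L1Md_A (61.7 CPM against 34.8) and L1Md_Gf (11.8 CPM against 3.16). The library of 10 h replicate 5 was lowest in the summed older rows (546 CPM against 2132) and in L1Md_A (0.472 CPM against 10.1).

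Single libraries also stood apart in L1Md_T at 12 h (replicate 5, 210.04 CPM, the next being 277), in L1Md_F among oocytes (replicate 7, 3.87 CPM against 6.07) and in L1Md_F among morulae (replicate 4, 34.4 CPM against 12.5). Morula replicate 4 holds only 45 LINE-1 counts, so its L1Md_F value lies at the limit of a few counts. L1Md_Gf stood apart near the same limit, at 2 h (replicate 2, 0.842 CPM), 12 h (replicate 4, 1.02 CPM) and 14 h (replicate 5, 0.606 CPM, the others being 0). The change from 16 h to 22 h differed by title, by 2.32 (log2) for L1MEd and 1.97 for L1Md_T, in an interaction test of edgeR over the 16 h and 22 h libraries. In both rows 7 of 7 libraries of 22 h whose titles end in b lay above the 3 others.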

How the results depend on the processing

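The log2 differences of the summed young and older rows were, on the main scaling, 1.85 and 0.53 at 0 h against oocytes, -1.35 and -0.05 for 12 h against 0 h, 0.31 and 0.051 for 16 h against 14 h, 1.01 and 0.37 for 24 h against 12 h, 0.99 and 0.76 for 36 h against 24 h and 0.11 and -1.75 in morulae against 36 h. For 22 h against 16 h, where L1Md_T and L1MEd split by title, they were 1.26 and 0.46. Without L1Md_T and L1MEd the young and older sums and their ratio were -0.24, 0.24 and -0.48 at 0 h, 0.49, 0.24 and 0.26 at 12 h, 2.20 and 1.39 (young and ratio) at 36 h, and -2.36, -2.41 and 0.053 in morulae. Scaling to the repeat rows put the sum of older rows at -0.26, -0.25, -0.15, 0.016 and 0.45 for 12 h, 16 h, 24 h, 36 h and morulae, and that of young rows at 0.48, 0.24 and 2.31 in the last 3. On library size alone the older sum was -0.32 at 12 h. Leaving out 1 library gave -0.10 to 0.032 for the older sum at 12 h and -0.028 to 0.11 at 16 h.

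Scaling to the repeat rows called 6 LINE-1 rows and 0 young rows at 24 h, and 19 and 2 in morulae. It turned L1Md_T to -0.049 and L1Md_F to -0.14 at 16 h, L1Md_T to -0.59 at 36 h, and in morulae L1Md_A to 0.32, L1Md_F3 to 0.72, L1Md_Gf to 1.44, L1MC1 to 0.25 and L1M4 to 0.25. It moved the median of all rows to -0.24 at 12 h, -0.11 at 22 h and -0.50 at 24 h, and library size alone moved it to -0.27, 0.18, 0.27 and 0.33 at 12 h, 16 h, 24 h and 36 h. Among called rows of the whole table, from 12 h through 16, 22, 24 and 36 h to morulae, those higher made up 51.05%, 46.7%, 15.02%, 63.6%, 54.5% and 37.4%; on the repeat scaling they made up 33.2%, 22.0%, 2.75%, 23.1%, 27.6% and 78.3%, and on library size alone 31.5%, 68.2%, 8.49%, 76.3%, 66.1% and 34.1%. With DESeq2 they made up 33.3% at 22 h. Library size alone called 20 LINE-1 and 5 young rows at 24 h.

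One fit of all 96 libraries called 5 LINE-1 rows and 1 young row at 0 h, 0 LINE-1 rows at 16 h and 5 young rows at 24 h. With no filter on low counts 1 row was called at 16 h. At 22 h, DESeq2 and the libraries with titles ending in b each called 7 LINE-1 rows, 2 of them young. Without such titles 0 LINE-1 rows were called at 16 h, 0 at 22 h (0 young) and 32 at 24 h (5 young), and L1Md_F3 at 16 h (-0.28) and L1Md_F at 22 h (-0.052) turned negative. Without libraries of high marker level, an alternative chosen after seeing the data, 1 young row was called at 0 h, 1 LINE-1 row at 16 h, 0 LINE-1 rows and 0 young rows at 22 h, and L1Md_F at 0 h was -0.15. Leaving out 1 library gave 0 to 4 LINE-1 calls at 16 h (0 without 14 h replicate 5), 2 to 4 at 22 h, 8 to 19 at 24 h and -0.035 to 0.31 for L1Md_F at 0 h. With the title number as a replicate block, 1 young row and 15 LINE-1 rows were called at 0 h, 9 at 12 h and 66 in morulae, and L1Md_F2 and L1Md_F3 at 0 h and L1Md_Gf and L1Md_T in morulae missed the threshold (edgeR adjusted p = 0.0581, 0.119, 0.0703 and 0.0517). Libraries of the same number correlated at -0.20 to 0.16, so the numbers were not taken as pairs. The cause of these changes was not tested. For the 93 single-row results, 645 of 742 values under other settings kept direction and side of the threshold.

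Depth limits the low rows: morula replicate 4 holds 45 LINE-1 counts, and L1Md_Gf was testable at 36 h and in morulae alone. A row sums copies of many lengths and places, and reads inside gene introns or last exons count with it; how far they do was not tested. The files give no strand, no per-copy counts and no spike-in, so promoter activity, passive read-through and total RNA per embryo cannot be told apart.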
